A study of Mus musculus with 16 samples.

Results

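The interleukin 1 (IL-1) family is a set of cytokine ligands with their receptors, decoy receptors and antagonists. Members were taken by symbol, as every gene in the deposited table called *Il1a*, *Il1b* or *Il33*, or starting with Il1r or Il18. This gave 10 of 734 genes. By role they are the ligands *Il1a*, *Il1b*, *Il18* and *Il33*, the signalling receptor chains *Il1r1*, *Il1rap*, *Il1rl1* and *Il18r1*, the decoy receptor *Il1r2*, and the antagonist *Il1rn*. Other members that the rule could have caught, *Il18bp*, *Il18rap* and *Il1rl2*, are not analysed here.

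Molecules of mRNA were counted on the NanoString nCounter, with its panel for myeloid innate immunity, in CD11b+ cells of the spleen, isolated by positive selection from 16 wild type C57BL/6 mice, 4 in each of 4 groups. Naive mice were untreated. The second group was given 20e6 allogeneic BALB/c splenocytes i.p., depleted of T cells, and no drug (BALB/c-cell mice). The third received the same cells and CTLA4-Ig (Abatacept, which blocks CD28 costimulation), 150 µg i.p. once on day 2 (CTLA4-Ig mice), and the last received cells, CTLA4-Ig and daily i.p. recombinant EPO (epoetin alfa) at 5000 units/kg (EPO mice). Spleens of the mice given cells were taken on day 7. Sources differ on the gate and the route, since the study's text also gives CD11b+CD11c- cells and i.v. injection of the BALB/c cells, and the labels were followed. The study's text does not state that the injected BALB/c cells were depleted of T cells. One protocol field of the labels swaps the letter codes of the naive and BALB/c-cell groups against the sample names and treatment fields. Grouping here follows the names, on which every comparison of these 2 groups rests.

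IL-1 alpha and IL-1 beta bind the same receptor, IL-1R1, which signals once the accessory chain IL-1RAP joins it and passes the signal through MyD88 to NF-kB. IL-1 beta and IL-18 are made as precursors that caspase-1 cleaves in inflammasomes, and IL-18 acts with IL-12 to raise interferon gamma in T and NK cells. IL-1R2 binds IL-1 without signalling and the IL-1 receptor antagonist occupies IL-1R1, so both limit IL-1. In the spleen, neutrophils, monocytes and macrophages are well known sources of these cytokines.

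The values are normalised log2 expression as the authors deposited it, from which molecule counts were recovered. Total recovered counts were 562760 to 843830 in naive mice, 700091 to 843363 in BALB/c-cell mice, 690326 to 912328 in CTLA4-Ig mice and 655838 to 827739 in EPO mice. The factor between counts and deposited values was 1.27 to 1.85 in naive mice and 0.56 to 0.79 in the other mice. Over the whole panel, the median log2 difference between BALB/c-cell and naive mice was -0.65, and that between EPO and naive mice -0.74, so differences of members from naive mice are given with their values relative to this median where each is described. It was -0.00429 for CTLA4-Ig against BALB/c-cell mice and -0.07 for EPO against CTLA4-Ig mice. The markers of CD11b+ cells on the panel were present in every mouse, with *Itgam*, which encodes CD11b, at a mean of 11.42 in naive, 8.85 in BALB/c-cell, 9.22 in CTLA4-Ig and 9.56 in EPO mice. Its difference between BALB/c-cell and naive mice was -2.57, or -1.92 relative to the panel median. *Itgax*, which encodes CD11c, was also present in every mouse, at a mean of 8.33 in naive, 8.41 in BALB/c-cell, 8.48 in CTLA4-Ig and 7.55 in EPO mice.

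Naive mouse 1 stood apart from the others of its group. Its chi-square per degree of freedom over all genes was 71.8 to 127 against the other 3 naive mice, which gave 8.40 to 19.9 among themselves, and its 10 most abundant genes held 59.8% of counts, against 42.1% to 46.2% in those mice. Without it, BALB/c-cell against naive mice gave 8 members lower and 0 higher, and EPO against naive mice gave 6 lower and 2 higher, the same counts as with it on the deposited scale. Genes of the panel called in either direction were 488 and 511 without it, against 516 and 520 with it. With it, 58.4% and 61.7% of all genes were lower and 11.9% and 9.13% higher, and shares by direction without it are not given here. The 8 and the 6 include *Il33*, which was near the lower limit of the counts. Without naive mouse 1 the panel medians were -0.63 and -0.74. Relative to them, for BALB/c-cell against naive mice, *Il1b* was at -3.41, *Il1rn* at -3.04, *Il1rap* at -2.93, *Il1rl1* at -1.17 and *Il1r2* at -1.01. *Il18* and *Il18r1*, at -0.37 and -0.64 on the deposited scale, lay at 0.26 and -0.00718 relative to the median, and with all mice both were positive under 4 other scalings. For EPO against naive mice, relative to the median, *Il1b* was at -3.86, *Il1r2* at -3.73, *Il1rn* at -2.51, *Il1rap* at -2.50, *Il18r1* at -0.31, *Il18* at 2.14 and *Il1a* at 2.17.

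EPO with CTLA4-Ig was compared with CTLA4-Ig alone. Calls are adjusted *P* values below 0.05 in limma, with the Benjamini-Hochberg method over all 734 genes. By these, 3 of the 10 members rose (*Il18*, *Il1a* and *Il1rl1*), against 22.8% of all genes, and 3 fell (*Il1r2*, *Il1b* and *Il18r1*), against 28.3% of all genes. In these 6 members the 4 EPO mice did not overlap the 4 CTLA4-Ig mice, which held for 48.8% of all genes. These counts are near the shares of all genes. The median difference of the 9 members other than *Il33* was 0.18, over members that went both ways, and that of the panel -0.07. *Il1rap*, *Il1rn* and *Il1r1* were not called, and *Il33* sat at the lower limit of the counts.

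BALB/c cells alone, against naive mice, gave calls in the lower direction. Of the 10 members 8 were called lower, against 58.4% of all genes, and 0 higher, against 11.9%. These counts hold for the deposited scale. Under 4 other scalings (centring on medians, quantile normalization, counts scaled by totals and limma-voom) 6, 6, 5 and 5 members were lower and 2, 2, 3 and 4 higher. In the same order, 438, 443, 465 and 476 genes of the panel were called in either direction, against 516 on the deposited scale. Shares by direction under these scalings are not given here. Both counts of 6 include *Il33*, and without it 5 members were lower under each scaling. *Il33* is also 1 of the 8. It had a recovered count of 1 in 15 of the 16 mice, and without it 7 were lower on the deposited scale. *Il18* and *Il18r1*, 2 of these 7, were called lower on the deposited scale and lay at 0.21 and 0.04 relative to the panel median, the opposite direction. The median difference of the 9 members other than *Il33* was -1.81, or -1.16 relative to the panel median. EPO mice against naive mice had 2 members higher (*Il18* and *Il1a*), against 9.13% of all genes, and 6 lower, 5 without *Il33*, against 61.7%. Under the 4 other scalings, in the same order, 3, 3, 4 and 4 were higher and 6, 5, 4 and 4 lower. Genes of the panel called in either direction were then 417, 414, 430 and 441, against 520 on the deposited scale. The first 2 of these counts of lower members include *Il33*, and without it they are 5 and 4.

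CTLA4-Ig, compared with BALB/c cells alone, gave 0 called members and 0 called genes (0% higher and 0% lower) in limma. Without adjustment, 70 genes (9.54%) had a *P* value below 0.05, among them 1 member, *Il1a*. The methods' t-test for comparing 2 groups, after adjustment, and limma-voom on recovered counts also called 0 genes. For the nCounter data the methods name a limma test instead.

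**Figure D1:**
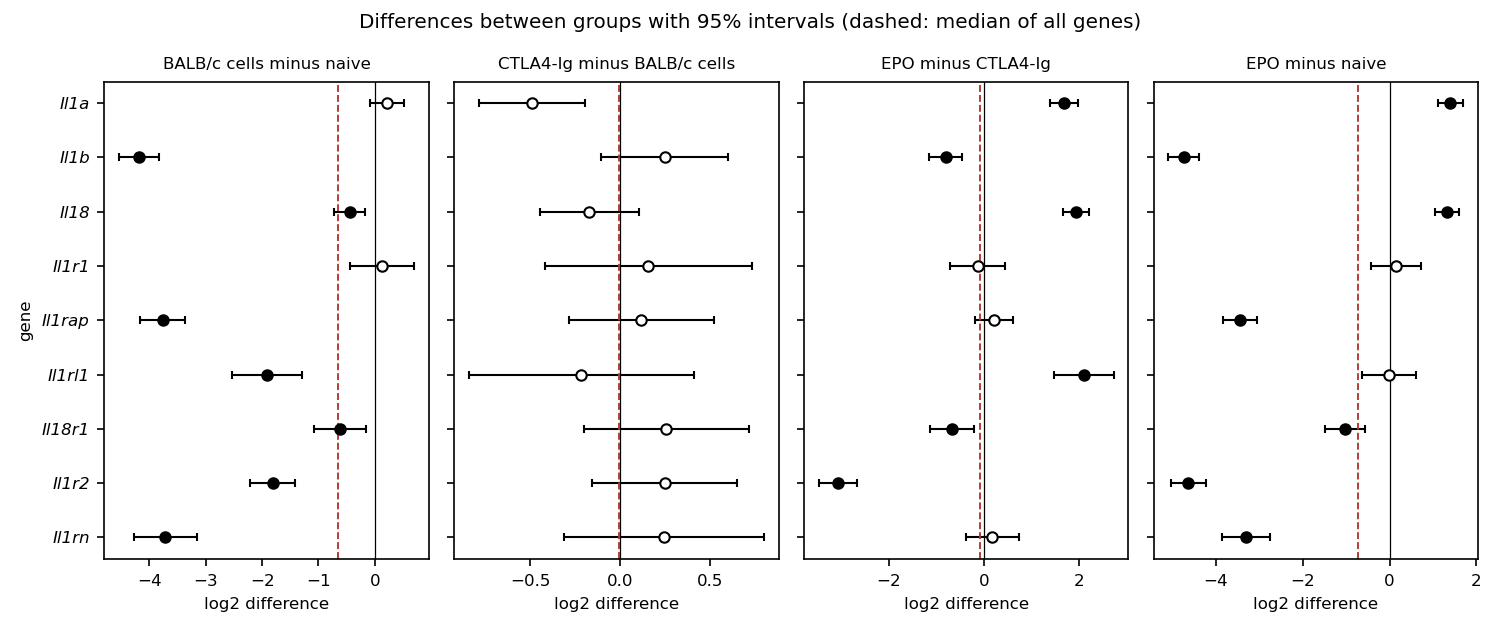
Log2 differences (x axis, range differing between panels) of the members other than *Il33* in 4 comparisons, with 95% intervals as bars, filled points for members called in limma and a dashed line at the median difference of all 734 genes. *Il18*, *Il1a* and *Il1rl1* lie to the right and *Il1r2*, *Il1b* and *Il18r1* to the left with EPO against CTLA4-Ig, and no point is filled for CTLA4-Ig against BALB/c cells.

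Sequences upstream of 4 members are shown because *Il1a* and *Il1b*, neighbours on chromosome 2, moved in opposite directions with EPO, and *Il18* and *Il1r2* carried the smallest adjusted *P* values among the members that rose and fell. Each line gives the 150 bases before the RefSeq start of the gene, read 5′ to 3′ along the gene's own strand in GRCm38.p6: *Il1a* chr2:129309973-129310122 and *Il1b* chr2:129371140-129371289 on the minus strand, *Il18* chr9:50554550-50554699 and *Il1r2* chr1:40085943-40086092 on the plus strand. Capitals mark matches to the motifs searched.
Il1a: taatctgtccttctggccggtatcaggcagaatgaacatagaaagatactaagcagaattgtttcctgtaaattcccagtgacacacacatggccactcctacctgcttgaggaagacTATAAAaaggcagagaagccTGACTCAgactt
Il1b: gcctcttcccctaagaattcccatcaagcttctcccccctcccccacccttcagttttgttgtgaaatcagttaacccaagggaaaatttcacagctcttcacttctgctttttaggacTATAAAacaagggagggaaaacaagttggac
Il18: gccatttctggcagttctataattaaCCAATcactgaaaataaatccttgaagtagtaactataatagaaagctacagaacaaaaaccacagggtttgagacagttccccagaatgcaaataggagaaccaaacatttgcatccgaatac
Il1r2: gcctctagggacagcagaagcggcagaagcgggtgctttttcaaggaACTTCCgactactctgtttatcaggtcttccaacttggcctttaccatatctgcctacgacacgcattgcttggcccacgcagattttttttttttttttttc

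In all, 7 motifs were searched on both strands, and no matches in these windows overlapped. TATAAA begins 32 bases before the *Il1a* start and 31 bases before the *Il1b* start, and 7.57% of 32851 windows of this length hold it. *Il1a* also holds TGANTCA 12 bases before its start (4.24% of windows). The *Il18* window has CCAAT at 124 bases (24.5% of windows), and the *Il1r2* window has GGAAGT on the opposite strand, as ACTTCC, at 103 bases (13.6% of windows). TTNNGCAA (5.46% of windows), AGATAA (5.65% of windows) and the NF-kB consensus of 10 bases (4.60% of windows) had no match in the 4 windows. A match describes letters and says nothing on binding. Of the 10 members, 10 have a start window in the RefSeq table. On chromosome 1 *Il1r2* stands next to *Il1r1*, and *Il1rl1* next to *Il18r1*.

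*Il1b* encodes IL-1 beta, the secreted ligand of IL-1R1. Its log2 level was 14.43, 13.93, 13.74 and 13.91 in the naive mice and 9.74, 9.86, 9.74 and 9.92 in the BALB/c-cell mice. It was 9.83, 10.42, 10.15 and 9.85 with CTLA4-Ig and 9.44, 9.44, 9.13 and 9.001 with EPO. Every naive mouse was far above every treated mouse, every EPO mouse was below every other mouse, and the BALB/c-cell and CTLA4-Ig mice overlapped. Recovered counts behind these levels were 8208 to 12306 in naive mice, 1176 to 1543 and 1306 to 1932 in the middle groups and 801 to 1003 in EPO mice.

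With EPO, *Il1b* fell by 0.81 on the log2 scale against CTLA4-Ig mice (standard error 0.16, 95% interval -1.16 to -0.46, adjusted *P* value 0.00077), 1.75-fold, with 4 of 4 EPO mice below all CTLA4-Ig mice. The larger step was between naive and BALB/c-cell mice, where the difference was -4.19 (standard error 0.16, adjusted *P* value 7.27e-11, lower in 4 of 4 mice), or -3.54 relative to the panel median. EPO mice stood -4.75 from naive mice, or -4.01 relative to the median. These 2 comparisons share the naive mice.

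Neutrophil markers moved with *Il1b* between naive and BALB/c-cell mice. Of the 18 on the list 11 are in the table, with *S100a9* the most abundant and 0 at a count of 1 in all mice, and 11 of the 11 were lower after BALB/c cells, against 58.4% of all genes (median -4.31, or -3.66 relative to the panel median). Their summed share of all counts was 49.9%, 30.9%, 27.9% and 34.0% in the naive mice and 6.78%, 2.58%, 3.91% and 2.37% in the BALB/c-cell mice. It was 4.75%, 4.23%, 2.62% and 2.95% with CTLA4-Ig and 8.07%, 16.04%, 10.5% and 12.2% with EPO. A share depends on all other counts of its mouse. Shares of other lists can therefore differ from those in naive mice without a change in their own level. In bulk samples such as these, fewer cells of a type and less RNA per cell cannot be told apart, and the markers' part in the *Il1b* difference was not tested. With EPO, 6 of the 11 were higher than with CTLA4-Ig (22.8% of all genes), 0 were lower (28.3%) and 5 were not called, while *Il1b* was lower. The 6 were *Camp*, *Fpr1*, *Fpr2*, *Mmp9*, *S100a8* and *S100a9*, and the 5 were *Csf3r*, *Cxcr2*, *Ly6g*, *Mmp8* and *Trem1*.

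*Il1a* encodes IL-1 alpha, which acts at the same receptor and is active without cleavage by caspase-1. It read 4.48, 4.66, 4.32 and 4.15 in naive, 4.50, 4.60, 4.47 and 4.91 in BALB/c-cell and 4.18, 3.91, 4.37 and 4.06 in CTLA4-Ig mice. The EPO mice read 5.68, 5.95, 5.91 and 5.70, above all 12 other mice. Neighbouring groups below EPO overlapped in their order of means, which was BALB/c cells, naive and CTLA4-Ig. The counts behind them were low, 12 to 20 in naive mice, 19 to 48 in the BALB/c-cell and CTLA4-Ig mice together and 71 to 107 in EPO mice.

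Against CTLA4-Ig mice, *Il1a* rose by 1.68 with EPO (standard error 0.14, 95% interval 1.38 to 1.97, adjusted *P* value 1.45e-07), 3.20-fold and in 4 of 4 mice. It was also higher in EPO than in naive mice, by 1.40 (adjusted *P* value 4.18e-07, 4 of 4 mice), or 2.14 relative to the panel median and 1.92 to 2.57 under 4 other scalings. For BALB/c cells against naive mice the difference of 0.22 was not called (adjusted *P* value 0.169), but it was 0.87 relative to the panel median and was called higher under each of 4 other scalings, at 0.95 to 1.28. The 4 CTLA4-Ig mice lay below the 4 BALB/c-cell mice, a difference of -0.49 that did not pass adjustment (adjusted *P* value 0.25).

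*Il18* encodes IL-18, the ligand known for inducing interferon gamma. Levels were 8.82, 8.60, 8.47 and 8.51 in naive mice and 8.45, 8.21, 7.91 and 8.06 after BALB/c cells. They were 8.11, 8.02, 7.98 and 7.82 with CTLA4-Ig and 10.06, 9.86, 10.06 and 9.70 with EPO. The EPO mice were the highest of the 16, the naive mice came next without overlap, and the BALB/c-cell and CTLA4-Ig mice overlapped. Counts were 212 to 307 in naive mice, where the factor is largest, 329 to 479 in the BALB/c-cell and CTLA4-Ig mice and 1215 to 1900 with EPO.

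The rise of *Il18* with EPO over CTLA4-Ig was 1.93 (standard error 0.13, 95% interval 1.66 to 2.21, adjusted *P* value 1.98e-08), 3.82-fold and in 4 of 4 mice. Over naive mice it was 1.32 (adjusted *P* value 3.78e-07, 4 of 4 mice), or 2.06 relative to the panel median and 1.84 to 2.52 under the same scalings. BALB/c-cell mice were lower than naive mice by the deposited values, at -0.44 (adjusted *P* value 0.00709, 4 of 4 mice), but the direction turned under 4 other scalings, to between 0.20 and 0.64, and the call was lost with a 1.5-fold minimum. *Il18* was called higher than in naive mice with counts scaled by totals (0.64, adjusted *P* value 0.00136) and in limma-voom (0.64, 0.000626), in a range of 0.000626 to 0.175 over the alternatives.

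Markers of red pulp macrophages, the iron-recycling macrophages of the spleen, were higher with EPO than with CTLA4-Ig, as were *Il18* and *Il1a*. Of the 14 listed, 9 are in the table, *Vcam1* is the most abundant and 0 were at a count of 1 in all mice. All 9 rose with EPO over CTLA4-Ig, against 22.8% of all genes (median 1.72, panel -0.07), and BALB/c cells against naive mice gave 3 higher (11.9% of all genes), 2 lower (58.4%) and 4 not called. Their share of counts was 0.627%, 0.815%, 0.871% and 1.02% in naive mice and 2.01%, 1.72%, 1.78% and 2.10% in BALB/c-cell mice. It was 1.63%, 1.60%, 1.74% and 1.64% with CTLA4-Ig and 5.80%, 4.81%, 7.84% and 6.19% with EPO. Summed as unlogged deposited values, these markers overlapped between naive (8175 to 10563) and BALB/c-cell mice (9153 to 11065). Their part in the rise of *Il18* and *Il1a* was not tested. The samples were selected for CD11b, and how far the selection kept these macrophages was not measured. *Spic*, *Hmox1*, *Slc40a1*, *Axl* and *Cd5l* of that list are not analysed here.

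*Il33*, whose product IL-33 is released by damaged stromal cells, had a recovered count of 1 in 15 of the 16 mice and of 4 in naive mouse 4. A count of 1 is the lowest value a mouse can have in this table and may stand for 0. No difference is reported for it.

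**Figure D2:**
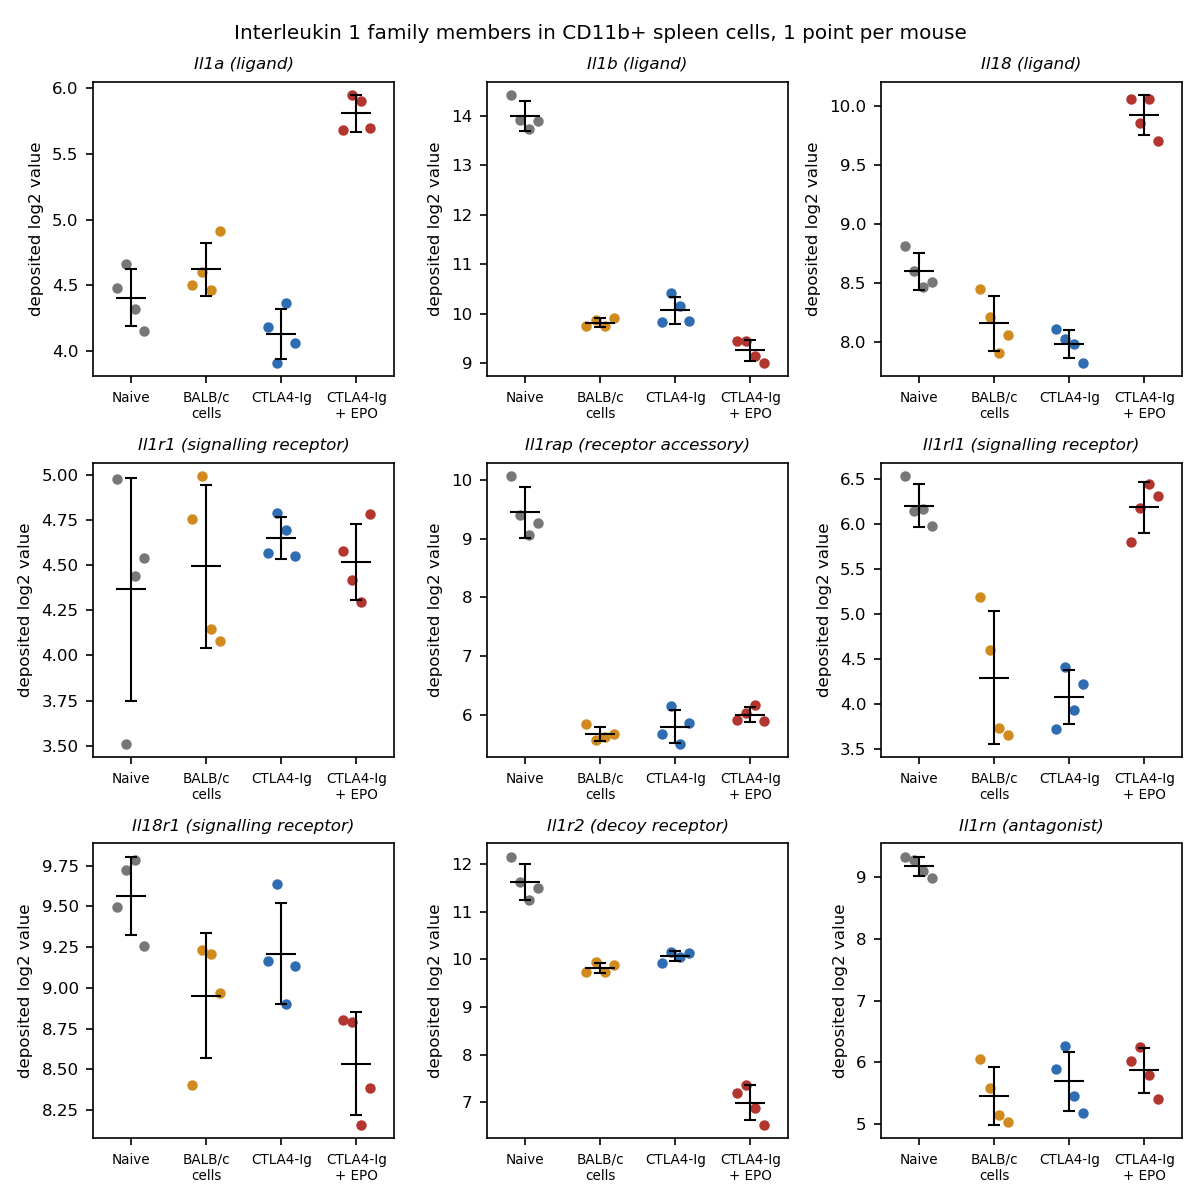
Normalised log2 expression (y axis) of the 9 members other than *Il33* in each of the 16 mice, by group, with bars for the mean and SD of 4 mice. *Il18* lies at 9.70 to 10.06 with EPO, above all other mice, and *Il1r2* at 6.53 to 7.36, below all other mice.

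Among the receptors, *Il1r1* encodes the signalling chain for IL-1. It lay between 3.51 (naive mouse 2) and 4.99 (BALB/c-cell mouse 2) in the 16 mice, from 9 to 44 counts. Each group overlapped its neighbours, and 0 of the 4 comparisons called it. With EPO against CTLA4-Ig the difference was -0.13 (95% interval -0.71 to 0.44). Against naive mice it was 0.13 after BALB/c cells and 0.15 with EPO, or 0.78 and 0.89 relative to the panel median, and 4 other scalings called both higher (0.86 to 1.19 and 0.67 to 1.34).

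*Il1rap* encodes the accessory chain shared by the IL-1 and IL-33 receptors. Naive mice had 10.07, 9.40, 9.06 and 9.26, and the other 12 mice 5.50 to 6.16. Naive mice stood apart and the treated groups overlapped each other. The difference between BALB/c-cell and naive mice was -3.77 (standard error 0.19, adjusted *P* value 4.27e-10, lower in 4 of 4 mice), or -3.12 relative to the panel median. It was 0.20 with EPO against CTLA4-Ig (95% interval -0.20 to 0.60), not called and of the opposite sign after quantile normalization. The neutrophil markers described with *Il1b* were lower after BALB/c cells (11 of 11, against 58.4% of all genes). Their part in the *Il1rap* differences was not tested.

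*Il1rl1* encodes ST2, the receptor of IL-33, known from mast cells, basophils and type 2 lymphocytes. It measured 6.53, 6.15, 6.16 and 5.98 in naive mice and 5.19, 4.60, 3.73 and 3.65 in BALB/c-cell mice. Levels were 3.73, 4.42, 3.94 and 4.23 with CTLA4-Ig and 5.80, 6.18, 6.45 and 6.31 with EPO. Naive and EPO mice overlapped at the top, BALB/c-cell and CTLA4-Ig mice overlapped at the bottom, and these pairs of groups were apart. The BALB/c-cell mice spread most, with mouse 1 highest, and counts were 43 to 56 in naive, 19 to 50 in the middle groups and 77 to 156 in EPO mice.

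*Il1rl1* rose by 2.11 with EPO over CTLA4-Ig (standard error 0.29, 95% interval 1.48 to 2.73, adjusted *P* value 2.53e-05), 4.31-fold and in 4 of 4 mice. Between BALB/c-cell and naive mice the difference was -1.91 (standard error 0.29, adjusted *P* value 3.81e-05, 4 of 4 mice lower), or -1.26 relative to the panel median. It was smaller with counts scaled by totals (-0.82) and in limma-voom (-0.84), and called lower in both. EPO and naive mice differed by -0.02 (95% interval -0.65 to 0.60), not called, which is 0.72 relative to the panel median and was positive under 4 other scalings (0.38 to 1.19) and with array weights. It was called higher under 2 of these scalings, with counts scaled by totals (1.17, adjusted *P* value 0.00199) and in limma-voom (1.19, 0.000104), in a range of 0.000104 to 0.962 over the alternatives. These comparisons share groups, so they are not independent of each other.

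Of 10 basophil and mast cell markers 8 are in the table, with *Hdc* the most abundant. With EPO over CTLA4-Ig 3 were higher and 2 lower, against 22.8% and 28.3% of all genes, and after BALB/c cells 1 was higher and 6 lower than in naive mice, against 11.9% and 58.4%. Their share of counts was 0.215%, 0.239%, 0.259% and 0.231% in naive mice, and 0.101%, 0.0997%, 0.0971% and 0.0932% in BALB/c-cell mice. It was 0.106%, 0.125%, 0.0940% and 0.103% with CTLA4-Ig and 0.123%, 0.122%, 0.113% and 0.119% with EPO. *Tpsb2* was at 20 counts or fewer in all mice and at 1 in some. Of 9 eosinophil markers 6 are in the table, led by *Prg2*, with 0 at a count of 1 in all mice, and EPO against CTLA4-Ig gave 4 higher and 1 lower, and BALB/c-cell against naive mice 1 higher and 5 lower, beside the same shares of all genes. Their share was 0.157%, 0.111%, 0.125% and 0.259% in naive mice and 0.105%, 0.0726%, 0.0582% and 0.0691% after BALB/c cells. It was 0.0734%, 0.0588%, 0.0616% and 0.0546% with CTLA4-Ig and 0.495%, 0.607%, 0.625% and 0.577% with EPO. Their part in the *Il1rl1* differences was not tested.

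*Il18r1* encodes the ligand-binding chain of the IL-18 receptor. Values were 9.49, 9.72, 9.79 and 9.26 in naive mice, 8.40, 9.23, 9.21 and 8.97 after BALB/c cells, 9.17, 9.64, 8.90 and 9.13 with CTLA4-Ig and 8.80, 8.79, 8.16 and 8.39 with EPO. Groups next to each other in the order of means overlapped, whereas EPO and CTLA4-Ig mice did not. With EPO it fell by 0.67 against CTLA4-Ig (standard error 0.21, adjusted *P* value 0.0164, 4 of 4 mice below), 1.60-fold. That call was lost without EPO mouse 3 (-0.55, adjusted *P* value 0.0574), without CTLA4-Ig mouse 2 (-0.53, 0.0556) and with counts scaled by totals (-0.57, 0.0635), in a range of 0.00168 to 0.0635 over the alternatives. Between BALB/c-cell and naive mice the value was -0.61 (adjusted *P* value 0.0204, 4 of 4 mice below), 0.04 relative to the panel median and positive under 4 other scalings (0.12 to 0.48), with a call in the higher direction in limma-voom (0.48, adjusted *P* value 0.0494, in a range of 0.00986 to 0.633 over the alternatives). It was not called without BALB/c-cell mouse 1 (-0.43), naive mouse 2 (-0.56) or naive mouse 3 (-0.54). Against naive mice EPO gave -1.03 (adjusted *P* value 0.00062, 4 of 4 mice below), or -0.29 relative to the median, and turned positive with counts scaled by totals and in limma-voom.

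T and NK cells, which are known to carry the IL-18 receptor, had markers that were lower with EPO, as was *Il18r1*. The samples were selected for CD11b, which most T cells lack. Of 14 T cell markers 5 are in the table, led by *Cd28*, and 5 of 5 were lower with EPO than with CTLA4-Ig, against 28.3% of all genes. Their share was 0.257%, 0.252%, 0.236% and 0.267% of counts with CTLA4-Ig and 0.118%, 0.0845%, 0.0795% and 0.0837% with EPO. Of the other groups, naive mice had 0.0323%, 0.0574%, 0.0768% and 0.0560%, and BALB/c-cell mice 0.271%, 0.310%, 0.245% and 0.253%, higher than in naive mice for 5 of 5 markers (11.9% of all genes), while *Il18r1* was lower on the deposited scale. Of 9 NK markers 3 are in the table, led by *Gzma*, and 3 of 3 were lower with EPO, beside the same 28.3% of all genes. Their share was 1.70%, 2.24%, 1.54% and 1.91% with CTLA4-Ig and 1.39%, 1.05%, 1.06% and 1.16% with EPO. Naive mice had 0.522%, 0.987%, 1.10% and 0.701% and BALB/c-cell mice 0.809%, 1.24%, 1.45% and 1.35%, with 2 of 3 NK markers lower on the deposited scale (58.4% of all genes). Summed as unlogged deposited values, the NK markers were at 7252 to 10544 in naive and 4303 to 7749 in BALB/c-cell mice. Share and summed level thus differed in direction, each with overlap between the groups. For both lists 0 markers were at a count of 1 in all mice, *Cd3e*, *Cd4*, *Cd8a* and *Ncr1* are not analysed here, and their part in the *Il18r1* differences was not tested.

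**Figure D3:**
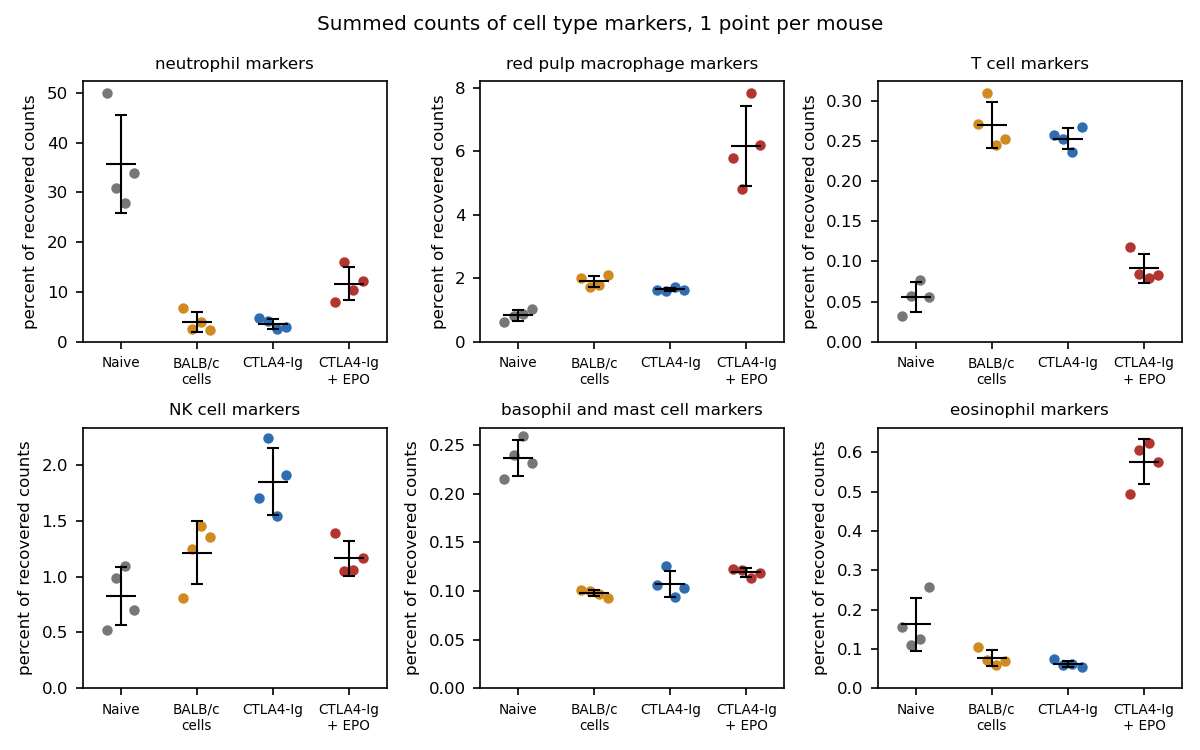
Summed share of recovered counts in percent (y axis) held by each of 6 cell marker lists, 1 point per mouse by group, with bars for the mean and SD of 4 mice. Red pulp macrophage markers hold 4.81% to 7.84% with EPO and at most 2.10% in the other mice, and neutrophil markers hold 27.9% to 49.9% in naive mice. Each share also depends on all other counts of its mouse.

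*Il1r2* encodes the decoy receptor, which binds IL-1 and cannot signal. In naive mice it was at 12.15, 11.63, 11.26 and 11.50, and in BALB/c-cell mice at 9.73, 9.94, 9.73 and 9.89. CTLA4-Ig mice had 9.93, 10.16, 10.06 and 10.13, and EPO mice 7.19, 7.36, 6.89 and 6.53. The 4 EPO mice were the lowest of the 16 and the 4 naive mice the highest, and the middle groups overlapped. Counts were 1466 to 2499 in naive mice, 1166 to 1515 after BALB/c cells, 1400 to 1811 with CTLA4-Ig and 144 to 215 with EPO.

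The difference of -3.08 with EPO against CTLA4-Ig (standard error 0.19, 95% interval -3.48 to -2.68, adjusted *P* value 1.23e-08, 4 of 4 mice lower) is 8.46-fold. Between BALB/c-cell and naive mice it was -1.81 (adjusted *P* value 7.42e-07, 4 of 4 mice lower), or -1.16 relative to the panel median. It was -0.73 with counts scaled by totals and in limma-voom, called lower in both. EPO mice stood -4.64 from naive mice (adjusted *P* value 8.09e-11, 4 of 4 mice lower), or -3.91 relative to the median. Neutrophils are known to carry IL-1R2, and the neutrophil markers described with *Il1b* were lower after BALB/c cells, as was *Il1r2*. With EPO, where *Il1r2* fell, 6 of the 11 were higher, 0 were lower and 5 were not called, against 22.8% and 28.3% of all genes higher and lower. The markers' part in the *Il1r2* differences was not tested.

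*Il1rn* encodes the IL-1 receptor antagonist. It stood at 9.33, 9.27, 9.10 and 8.99 in naive mice and at 6.05, 5.58, 5.15 and 5.03 in BALB/c-cell mice. CTLA4-Ig mice had 5.89, 6.26, 5.45 and 5.17, and EPO mice 6.02, 6.25, 5.79 and 5.40. Naive mice were apart from the 12 treated mice, whose groups overlapped. BALB/c-cell minus naive was -3.72 (standard error 0.26, adjusted *P* value 1.16e-08, 4 of 4 mice lower), or -3.07 relative to the panel median. EPO minus CTLA4-Ig was 0.18 (95% interval -0.38 to 0.73), not called, and changed sign after centring on medians and after quantile normalization. *Il1rn* and *Il1rap* were also lower in EPO than in naive mice, at -3.30 and -3.45, or -2.57 and -2.71 relative to the panel median, with 4 of 4 mice lower in each. With counts scaled by totals these were -2.10 and -2.25, also called lower. Against naive mice, 11 of 11 neutrophil markers were lower after BALB/c cells (58.4% of all genes) and 11 of 11 with EPO (61.7%). Their part in the *Il1rn* and *Il1rap* differences was not tested.

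Set against each other within a mouse, ligand and opposing genes do not depend on that mouse's scaling factor. Because probes differ, only the change of such a difference between groups can be read, and it was not tested. The log2 difference of *Il1b* minus *Il1r2* was 2.28, 2.30, 2.49 and 2.41 in naive mice and 0.01, -0.08, 0.01 and 0.03 in BALB/c-cell mice. With CTLA4-Ig it was -0.10, 0.25, 0.09 and -0.28, and with EPO 2.25, 2.08, 2.25 and 2.48. Naive and EPO mice overlapped, and both lay above every BALB/c-cell and CTLA4-Ig mouse. Both genes were lower in EPO than in naive mice by like amounts, -4.75 and -4.64, while after BALB/c cells *Il1b* was lower by more than *Il1r2*, -4.19 against -1.81.

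**Figure D4:**
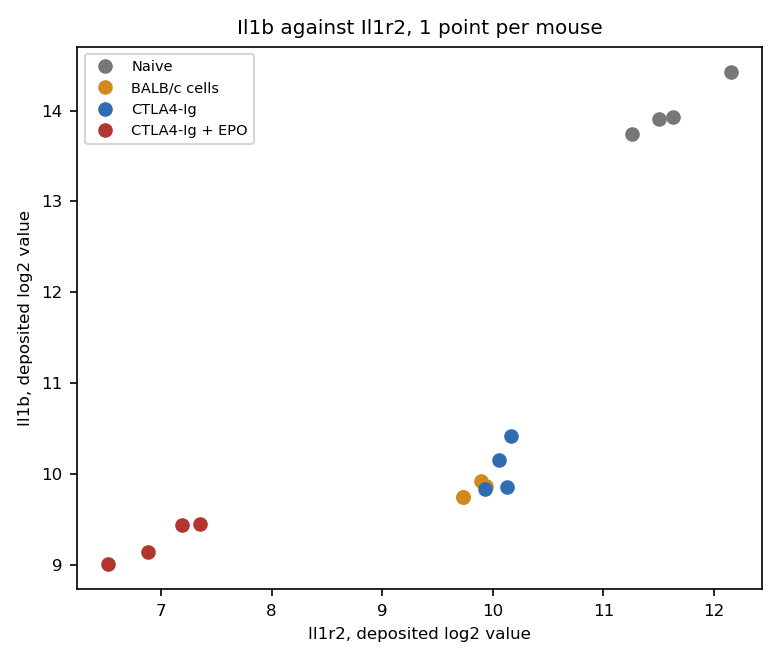
*Il1b* (y axis) against *Il1r2* (x axis) in normalised log2 expression, 1 point per mouse coloured by group. The naive mice lie at the upper right, the BALB/c-cell and CTLA4-Ig mice share a cluster near 10 on both axes, and the EPO mice lie lowest on both, at 6.53 to 7.36 for *Il1r2*.

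*Il1b* minus *Il1rn*, ligand against antagonist, was 4.83 ± 0.22 in naive, 4.36 ± 0.51 in BALB/c-cell, 4.37 ± 0.38 in CTLA4-Ig and 3.39 ± 0.17 in EPO mice (SD, n = 4 each). EPO mice, at 3.19 to 3.60, were below all other mice. *Il1b* minus *Il1r1*, ligand against signalling receptor, was 9.64 ± 0.52 in naive mice, 5.32 ± 0.47 and 5.41 ± 0.16 in the middle groups and 4.74 ± 0.35 in EPO mice, with the latter overlapping the BALB/c-cell mice. *Il18* minus *Il18r1* was -0.97 ± 0.30 in naive, -0.80 ± 0.58 in BALB/c-cell and -1.22 ± 0.31 in CTLA4-Ig mice, and 1.38 ± 0.36 in EPO mice, each of which, at 1.06 to 1.90, was above all other mice.

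**Figure D5:**
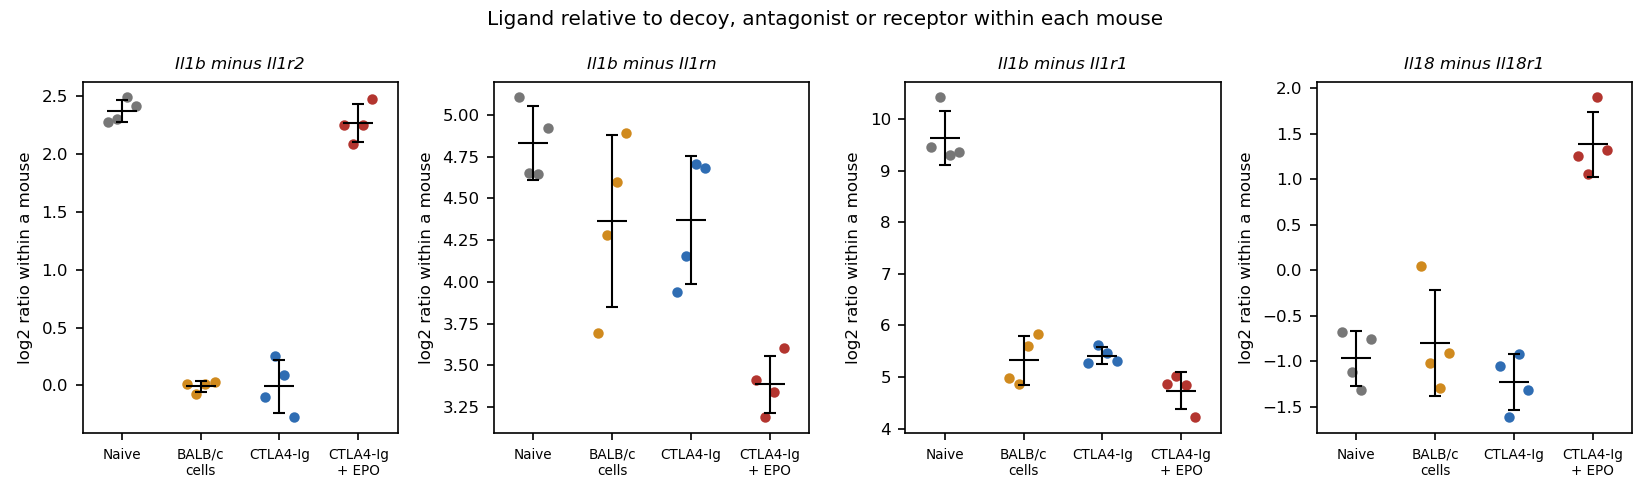
Within-mouse log2 differences (y axis) of 4 ligand and receptor, decoy or antagonist pairs, 1 point per mouse by group, with bars for the mean and SD of 4 mice. *Il1b* minus *Il1r2* is at 2.08 to 2.48 with EPO and at most 0.25 with CTLA4-Ig or BALB/c cells alone.

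Genes with the most similar patterns were sought by Pearson's correlation of log2 values over the 16 mice, points that share treatment within groups, while all genes of a mouse share its scaling factor. For *Il1b* these were *Stat3* (0.992), *S100a11* (0.989) and *Adam8* (0.988). For *Il1r2* they were *Tuba1a* (0.970), *Btg2* (0.966) and *Cytip* (0.963), and for *Il18*, *Pdzk1ip1* (0.979), *Hpgd* (0.971) and *Hpgds* (0.970). These names depend on the scaling. With each mouse centred on its median, *Il1b* was closest to *Cdkn1a* (0.990), *Myd88* (0.986) and *Adam8* (0.985), *Il1r2* to *Plaur* (0.976), *Nlrp3* (0.971) and *Fem1c* (0.964), and *Il18* to *Hpgd* (0.972), *Hpgds* (0.969) and *Fabp4* (0.968). In deviations from group means over the same 16 mice, *Il1b* was closest to *Nfil3* (0.850), *Tlr6* (0.841) and *Il1r2* (0.836). *Il1r2* was closest to *Cd244* (0.861), *Il1b* (0.836) and *Tlr6* (0.797), and *Il18* to *Ccl12* (0.811), *Cstb* (0.775) and *Faf1* (0.772).

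Downstream and upstream of the receptors, lists of genes were counted in the same fit, in which 22.8% of all genes were higher and 28.3% lower with EPO than with CTLA4-Ig, and 11.9% were higher and 58.4% lower after BALB/c cells than in naive mice. Of 17 genes for the inflammasome and cytokine release, which mature IL-1 beta and IL-18, 3 are in the table. With EPO over CTLA4-Ig, *Nlrp3*, the sensor, fell by 1.52 (standard error 0.09, adjusted *P* value 1.23e-08, 4 of 4 mice), the adaptor *Pycard* rose by 0.97 (adjusted *P* value 0.0140, 4 of 4 mice, lowest count 6), and *Casp1*, the protease, was not called (0.22). After BALB/c cells *Nlrp3* and *Casp1* were lower than in naive mice, at -1.16 and -0.31 relative to the panel median.

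Of 25 receptor adaptors and signal relay genes 6 are in the table, and with EPO 4 fell and 0 rose (median -0.39). *Jun*, a subunit of AP-1, fell by 0.84, *Nfkbia*, an inhibitor of NF-kB, by 0.70, and *Traf6*, a ubiquitin ligase of the IL-1 receptor complex, by 0.51, each in 4 of 4 mice. *Myd88*, the adaptor, was not called (0.02). After BALB/c cells 4 were lower on the deposited scale, of which *Mapk14* and *Nfkb1* lay at 0.04 and 0.44 relative to the panel median, and 1, *Jun*, was higher, at 1.19 relative to it.

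Of 24 genes known to be induced by IL-1, 20 are in the table. With EPO 7 fell (35%, against 28.3% of all genes), 2 rose (10%, against 22.8%) and 11 were not called (median -0.30, panel -0.07). The largest falls were *Tnfaip3*, an NF-kB feedback inhibitor (-1.52), the chemokine *Ccl4* (-1.31) and *Ptgs2*, a prostaglandin synthase (-0.96), and the rises were *Vcam1* (1.72) and *Mmp9* (0.71), which also stand in the red pulp macrophage and neutrophil lists. After BALB/c cells 17 were lower and 1, *Vcam1*, higher than in naive mice (median -1.29, panel -0.65). In the same comparison 11 of 11 neutrophil markers were lower, as given with *Il1b*, and their part in these differences was not tested. *Mmp9*, *Cxcl2* and *Cxcl3* had the largest falls, at -3.83, -3.27 and -1.76 relative to the panel median.

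On the IL-12 and IL-18 axis of interferon gamma, 6 of 10 genes are in the table (median -0.57 with EPO). *Ifng*, the cytokine that IL-18 induces, fell by 1.17 with EPO (standard error 0.21, adjusted *P* value 0.000269, 4 of 4 mice) while *Il18* rose. In the same comparison 5 of 5 T cell and 3 of 3 NK cell markers were lower, as given with *Il18r1*, and their part in the falls of *Ifng* and *Stat4* was not tested. *Stat4*, which relays IL-12, fell by 1.03 and *Il12a* by 0.90, *Il15* rose by 0.87 and *Il27* by 1.19 (lowest count 3), and *Il12b* was not called. After BALB/c cells *Il12a* and *Il12b* were higher than in naive mice, at 1.62 and 1.46 relative to the panel median, and *Il15* and *Il27* lower, at -2.23 and -0.60. Between CTLA4-Ig and BALB/c-cell mice, 0 genes of these 4 lists were called. Of 5 further IL-1 family genes, *Il1f10* and the Il36 group, 0 are in the table.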

How the data were processed

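The authors normalised raw nCounter counts in limma and deposited log2 values for 734 genes in 16 mice, with 4 mice per group. Counts were recovered by dividing each unlogged value by the lowest of its mouse. 100% were whole within 0.001, with a largest deviation of 0.000379, and 0.843% were at the lowest count of 1. Totals were 562760 to 912328 per mouse, and they limit the precision of genes with few counts, as does the spread between mice of a group, whose chi-square per degree of freedom was 5.10 to 127 and whose lowest correlation was 0.966, the extremes at 127 and 0.966 being naive mice 1 and 3.

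A group-means model was fitted in limma (3.58.1, R 4.3.3) to the deposited values of all 16 mice without a filter, with 4 contrasts, two-sided tests and Benjamini-Hochberg adjustment over 734 genes (threshold 0.05). The fit was also tested on simulated data. Counts, ratios and correlations used pandas 2.3.3 and numpy 2.4.6 in Python 3.11.15, with scipy 1.17.1, and figures used matplotlib 3.10.9. Symbols matched RefSeq (GRCm38.p6) for 724 genes, a synonym for 9 and none for 1.

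Mice with the same replicate number in the CTLA4-Ig and EPO groups deviated together over genes (r between 0.143 and 0.183 in 4 pairs). The range was 0.016 to 0.293 for CTLA4-Ig and BALB/c-cell mice. It was -0.058 to 0.165 for BALB/c-cell and naive mice and -0.129 to -0.016 for EPO and naive mice. Mice with unlike numbers were not compared, so these values cannot show pairing, and no label states it. With the number as a block over all 4 groups, 400 genes were called between CTLA4-Ig and EPO mice, against 375 without it. In that fit 3 members rose and 3 fell.

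Named genes are all members, for each pathway list up to 3 called genes with the largest rise and fall, and the 3 genes most like *Il1b*, *Il1r2* and *Il18*. *Itgam*, *Itgax*, *Casp1*, *Myd88*, *Nfkb1* and *Il12b*, and the names of the neutrophil markers, were added after their values were seen. Pathway lists cover the inflammasome and cytokine release, receptor adaptors and signal relay, genes induced by IL-1, the IL-12 and IL-18 axis, and other IL-1 family genes. Cell lists reported cover neutrophil, granulocyte progenitor, T cell, B cell, NK cell, basophil and mast cell, eosinophil, red pulp macrophage, dendritic cell and CD11b+ identity, and 1 further list that was counted is not reported here. Members and lists were chosen with earlier results of these data known. The 4 sequences and the 7 motifs were chosen after the data and the matches were seen.

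Settings varied were the threshold (unadjusted *P* values, or a 1.5-fold minimum), the scaling (quantile normalization, centring on medians, limma-voom, or counts scaled by totals with 0.5 added), the test (the methods' t-test, array weights, or trended and robust moderation) and the input (only the 2 groups compared, each mouse left out in turn, the replicate block, or no genes from the lowest 25%). Counts and medians of members without *Il33*, and the most similar genes after centring on medians, were chosen after seeing the data.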

Additional observations from a re-analysis of the deposited data

How the results depend on the processing

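With EPO against CTLA4-Ig, *Il1b*, *Il1r2* and *Il18* kept direction and call in each alternative, at -1.01 to -0.69, -3.28 to -2.93 and 1.73 to 2.03. Differences from naive mice carry the choice of scaling, *Il1r1* and *Il1rl1*, at low counts, have standard errors of 0.27 and 0.29, and no difference is given for *Il33*. Counted without *Il33*, a choice made after seeing the data, 7 members were lower after BALB/c cells and 5 with EPO than in naive mice.

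For BALB/c-cell against naive mice, 2 members were higher after centring on medians (438 genes called either way) and 2 after quantile normalization (443). With counts scaled by totals 3 were higher (465), and in limma-voom 4 (476), and 5 were lower in each of the last 2. *Il18* became 0.29, 0.20, 0.64 and 0.64, and *Il18r1* 0.12, 0.19, 0.47 and 0.48, in that order. For EPO against naive mice, 4 members were higher with counts scaled by totals (430 genes called either way) and 4 in limma-voom (441). *Il1rl1* there became 0.059 with array weights, and 0.50, 0.38, 1.17 and 1.19 under the 4 scalings in the same order, and *Il18r1* 0.16 and 0.17 in the last 2. *Il18r1* was no longer called after quantile normalization (-0.15). For EPO against CTLA4-Ig, *Il1rn* was -0.028 after centring and -0.16 after quantile normalization, and *Il1rap* -0.18 after quantile normalization. For CTLA4-Ig against BALB/c-cell mice, unadjusted *P* values gave 70 genes, with 1 member lower. The cause of these changes was not tested. Of the other member values apart from left-out mice, 104 kept direction and call with EPO against CTLA4-Ig, 107 with CTLA4-Ig against BALB/c cells, 90 with BALB/c cells against naive mice and 96 with EPO against naive mice.

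Leaving out each mouse in turn gave 0 to 1 genes for CTLA4-Ig against BALB/c-cell mice (1 without BALB/c-cell mouse 1 or 3). Signs changed for members that were not called, *Il1r1* against naive mice (-0.16 to 0.33 after BALB/c cells, -0.13 to 0.35 with EPO), *Il1rl1* with EPO against naive mice (-0.11 to 0.11), and *Il1rap* (-0.00141 to 0.21) and *Il1rl1* (-0.43 to 0.083) with CTLA4-Ig against BALB/c cells. Calls were lost for *Il18r1* in 3 fits after BALB/c cells against naive mice and in 2 with EPO against CTLA4-Ig, as given with its values, and for *Il18r1* after BALB/c cells also in the methods' t-test.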

Other observations

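The other cell lists reported here were counted in the same limma fit, in which 22.8% of all genes were higher and 28.3% lower with EPO than with CTLA4-Ig, and 11.9% higher and 58.4% lower after BALB/c cells than in naive mice. Granulocyte progenitor markers (3 of 6 in the table, *Mpo* the most abundant) were 3 of 3 higher with EPO than with CTLA4-Ig and 3 of 3 lower after BALB/c cells than in naive mice. B cell markers (2 of 10, *Ms4a1*) were 2 of 2 lower with EPO and 2 of 2 higher after BALB/c cells. Dendritic cell markers (7 of 10, *Ccr7*) had 1 higher and 3 lower with EPO, and 4 higher and 1 lower after BALB/c cells. Selection for CD11b would leave out most B cells, and for dendritic cells the sources differ on whether CD11c+ cells were left out. CD11b+ identity markers (6 of 9, *Tyrobp*) had 3 higher and 1 lower with EPO, and 6 lower after BALB/c cells (median -1.29, or -0.64 relative to the panel median). Their share of counts was 3.24% ± 0.391 in naive, 2.75% ± 0.0599 in BALB/c-cell, 3.12% ± 0.182 in CTLA4-Ig and 3.83% ± 0.139 in EPO mice (SD, n = 4 each). Between CTLA4-Ig and BALB/c-cell mice, 0 markers of these 4 lists were called.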
